A study of Mus musculus with 7 samples.

Results

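The mitochondrial genome of the mouse is read out here in naive (antigen-inexperienced) helper T cells of mice with an overactive phosphoinositide 3-kinase. The genes were all rows of the deposited table whose locus lies on the mitochondrial chromosome, and there were 13 of 34745 genes. All 13 encode proteins. The GENCODE M21 annotation lists 37 genes on this chromosome, of which 13 are protein-coding, 2 are ribosomal RNAs and 22 are transfer RNAs, and the ribosomal and transfer RNAs were not analysed here. RNA sequencing was performed on 4 libraries labelled PIK3CD GOF (heterozygous), a gain-of-function (GOF) allele of the gene for the p110delta catalytic subunit that the labels do not name further, and on 3 wild-type (WT) littermate libraries. Per the labels, both groups were male C57BL/6 mice aged 8 weeks with no treatment, and naive CD4 T cells were isolated from the spleen by negative selection, directly ex vivo. Labels and titles number the samples within each genotype, and each number was taken as 1 mouse. The labels name no promoter or cell type that restricts the allele, and p-values measure the spread between these mice.

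Mitochondrial DNA is a small circle present in many copies per cell. It is transcribed as long RNAs from each strand, which are cut into single messengers mainly at the transfer RNAs that stand between the protein genes. Its protein genes all encode membrane subunits of the respiratory chain and of ATP synthase, and every one of these machines except complex II combines them with subunits from the nucleus. Activation of T cells through phosphoinositide 3-kinase is known to change their metabolism, and naive cells rely largely on oxidative phosphorylation.

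All 13 genes passed the filter on low counts, and 7 of them were higher in GOF cells while 0 were lower (edgeR, adjusted p under 0.05). Among all 12668 tested genes 16.8% were called higher and 14.5% lower. The median log2 fold change of the 13 genes was 0.37, against 0.0061 over all tested genes. The 13 genes did not move alike. mt-Nd1 and mt-Nd2 were 1.64-fold and 1.60-fold higher in GOF cells, and both passed. The cytochrome c oxidase and ATP synthase genes had GOF levels 1.20-fold to 1.36-fold those of WT, of which mt-Co1 and mt-Atp6 did not pass. mt-Nd5 was at 0.920 of its WT level and did not pass. DESeq2 called 11 of the 13 higher and 0 lower. Over all genes it called 2408 higher and 2039 lower, where edgeR called 2130 and 1838. No gene was lower at an unadjusted p under 0.05 in edgeR.

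The libraries held 14945520, 15296355, 16293539 and 15293096 counts in GOF and 14497957, 15015783 and 14643134 in WT. Defining T cell genes were present at high levels in each library, with 1063 to 1162 CPM for Cd4 in GOF and 698 to 855 CPM in WT (CPM is counts per 1000000 counts, with totals scaled by the TMM method). Markers of other cells were higher in GOF. Of 15 myeloid markers 14 were called higher and their summed level was 198 to 649 CPM in GOF and 66.3 to 111 CPM in WT, with 0 markers at 0 counts throughout WT. Neutrophil markers summed to 61.6 to 216 CPM in GOF and 0.482 to 9.26 CPM in WT (9 of 10 higher, Camp at 0 in WT). B cell markers summed to 775 to 1363 CPM in GOF and 365 to 487 CPM in WT (6 of 9 higher). CD8 T and NK cell markers summed to 121 to 165 CPM in GOF and 59.1 to 75.9 CPM in WT (6 of 8 higher). The 9 tested red blood cell and platelet genes summed to 22.0 to 75.8 CPM in GOF and 6.61 to 20.3 CPM in WT (6 higher, with Car1 and Gp9 at 0 in WT), and to 69.8 and 75.8 CPM in GOF replicates 1 and 3. The myeloid sum was 610 and 649 CPM in GOF replicates 1 and 3 and 198 and 224 CPM in GOF replicates 2 and 4. Some of the results below are therefore also given without GOF replicates 1 and 3, and the part of these markers in the results was not tested. GOF replicates 2 and 4 still had more of the neutrophil markers than WT, at 61.6 and 77.4 CPM.

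The layout of the genes sets how well their counts can be told apart. On mm10, 12 of the 13 genes lie on the plus strand of the deposited coordinates and mt-Nd6 alone on the minus strand. Coordinates in the deposited table and in GENCODE M21 were the same for all 13. Only 6 genes have a transfer RNA on both sides. mt-Atp8 and mt-Atp6, subunits of the membrane part of ATP synthase, share 43 bases on the same strand, and mt-Nd4l and mt-Nd4 of complex I share 7. mt-Nd5 and mt-Nd6 share 14 bases on opposite strands. The stretches that carry these overlaps are shown 5′ to 3′ from the GENCODE M21 transcripts, with the overlapping bases in capitals: the whole of mt-Atp8 (chrM:7766-7969, plus strand), and the last 30 bases of mt-Nd4l (chrM:10144-10173, plus strand), of mt-Nd5 (chrM:13536-13565, plus strand) and of mt-Nd6 (chrM:13552-13581, minus strand).
mt-Atp8: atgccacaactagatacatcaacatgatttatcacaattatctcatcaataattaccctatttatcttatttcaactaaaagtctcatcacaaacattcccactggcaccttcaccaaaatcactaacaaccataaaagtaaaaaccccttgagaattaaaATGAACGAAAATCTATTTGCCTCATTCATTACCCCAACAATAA
mt-Nd4l: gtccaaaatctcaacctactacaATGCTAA
mt-Nd5: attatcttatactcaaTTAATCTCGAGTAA
mt-Nd6: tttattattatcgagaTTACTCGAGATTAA

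In the first pair the shared bases open with the ATG of mt-Atp6 and close with the TAA of mt-Atp8, and in the second with the ATG of mt-Nd4 and the TAA of mt-Nd4l. No source used here gives the counting rule or says whether strand was used, so reads over these bases, and reads of transcripts running through mt-Nd6 on the other strand, could fall to either gene. mt-Nd6 also differed in its letters, with 28.1% G and 5.97% C, whereas mt-Nd5 had 9.98% G and 27.1% C.

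The annotated ends of the genes differed too. For 3 genes the length was not a multiple of 3 and the annotation ended with a lone T after the last whole codon. In mammalian mitochondria such messengers are known to gain their full stop codon when the poly(A) tail is added, which makes the tail part of the reading frame. The last 30 bases of these genes are mt-Co3 (chrM:9361-9390), mt-Nd4 (chrM:11515-11544) and mt-Cytb (chrM:15259-15288), all on the plus strand, with the lone T in capitals.
mt-Co3: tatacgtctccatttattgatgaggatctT
mt-Nd4: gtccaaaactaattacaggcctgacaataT
mt-Cytb: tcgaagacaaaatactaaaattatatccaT

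The log2 fold changes of these 3 genes were 0.44, 0.33 and 0.32, inside the range of the 10 others. Another 8 genes ended in a whole TAA.

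Together the 13 genes took 6.71%, 5.78%, 6.67% and 6.27% of all counts in GOF libraries 1 to 4 and 5.12%, 4.33% and 4.89% in WT libraries 1 to 3. Every GOF library lay above every WT library, and within GOF the highest shares were those of replicates 1 and 3. The mean share was 6.36% ± 0.432 (SD, n = 4) in GOF and 4.78% ± 0.409 (SD, n = 3) in WT, a ratio of 1.33 (exact permutation test, 2-sided, p = 0.0571, the smallest that 4 against 3 libraries can give). Without GOF replicates 1 and 3 the difference was 1.25 percentage points, and with all libraries 1.58. Fewer cells of a type and less RNA per cell cannot be told apart in bulk samples, and a share of counts shows no amount per cell.

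**Figure D1:**
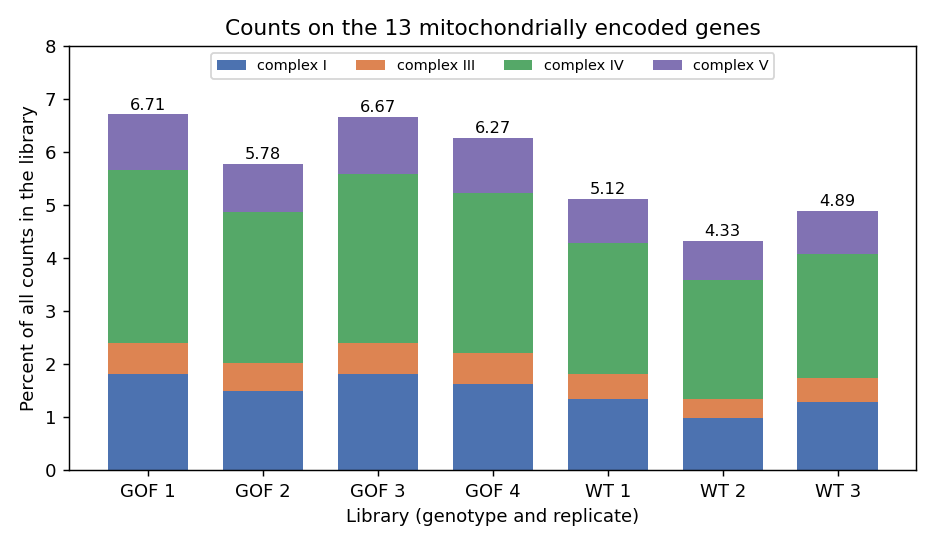
Percent of all counts in each library (y axis) that fell on the mitochondrially encoded genes, stacked by the respiratory complex their proteins join. The 4 GOF libraries on the left reach 5.78% to 6.71% and the 3 WT libraries on the right 4.33% to 5.12%.

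Each complex contributed to the difference. The 7 complex I genes took 1.68% ± 0.153 of counts in GOF (SD, n = 4) and 1.20% ± 0.192 in WT (SD, n = 3), a ratio of 1.41. The 3 genes of complex IV, cytochrome c oxidase, took 3.07% ± 0.181 in GOF and 2.35% ± 0.109 in WT, a ratio of 1.31. The complex III gene mt-Cytb took 0.576% ± 0.0334 in GOF and 0.438% ± 0.0628 in WT. The 2 complex V genes took 1.02% ± 0.0745 in GOF and 0.8002% ± 0.0526 in WT. None of these 4 sums overlapped between the groups, and each gave p = 0.0571 (exact permutation test, 2-sided).

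Levels per length spanned a wide range. In FPKM (counts scaled by gene length and by the library total) 7 of the 13 genes were among the 10 highest of all genes and 9 among the 20 highest, by the mean over the 7 libraries. mt-Atp8 was highest, with 13424 ± 600 FPKM in GOF and 10271 ± 488 FPKM in WT. Its FPKM divide by an annotated length of only 204 bases, 43 of them shared with mt-Atp6, with no other correction for length. It was followed by mt-Co1, the catalytic core of cytochrome c oxidase, with 12782 ± 643 FPKM in GOF and 10108 ± 268 FPKM in WT (SD, n = 4 and 3). The means of mt-Atp8 and mt-Co1 did not differ beyond the spread between libraries. Within libraries, mt-Atp8 was above mt-Co1 in every GOF library and in WT replicates 1 and 3, and below it in WT replicate 2. By mean FPKM in GOF the order went on with mt-Atp6, mt-Co3, mt-Co2, mt-Nd1, mt-Cytb, mt-Nd2, mt-Nd4, mt-Nd4l, mt-Nd5 and mt-Nd3. In GOF, mt-Co3 and mt-Co2, mt-Nd1 and mt-Cytb, mt-Nd2 and mt-Nd4, and mt-Nd5 and mt-Nd3 were closer together than the sum of their SDs. Within each GOF library the first gene of each pair was the higher, except that mt-Cytb exceeded mt-Nd1 in GOF replicates 2 and 4. In GOF, the mean of mt-Nd2 was above that of mt-Nd4, with 3319 ± 336 and 3067 ± 165 FPKM. In WT it was below, with 1966 ± 421 and 2310 ± 383 FPKM, each time within the spread between libraries. Compared within libraries, mt-Nd2 was above mt-Nd4 in every GOF library and below it in every WT library. In GOF replicate 2 the values were close, at 2844 and 2825 FPKM, and the change of order was not tested. mt-Nd6 was the lowest by far, with 13.5 ± 2.35 FPKM in GOF and 9.36 ± 1.98 FPKM in WT, and by the mean over all libraries the next lowest gene had 100.7-fold its FPKM. Its counts were 88, 92, 126 and 127 in GOF and 74, 56 and 84 in WT, few enough for counting error to add to the spread between libraries.

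Complex I, NADH dehydrogenase, is where electrons from NADH enter the chain, and its mitochondrially encoded subunits form the membrane arm that pumps protons. mt-Nd1 (ENSMUSG00000064341, chrM:2751-3707) was expressed at 5323, 4093, 5482 and 4716 CPM in GOF and at 3477, 2424 and 3069 CPM in WT. All GOF libraries lay above all WT libraries, with GOF replicate 2 and WT replicate 2 the lowest of their groups. Its log2 fold change was 0.71 (SE 0.15, edgeR quasi-likelihood, adjusted p = 0.00672), the largest of the 13. mt-Nd2 (ENSMUSG00000064345, chrM:3914-4951) had 3529, 2881, 3660 and 3400 CPM in GOF and 2493, 1605 and 2216 CPM in WT, and again the groups did not overlap. Its log2 fold change was 0.68 (SE 0.15, edgeR adjusted p = 0.0101).

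The small complex I subunits mt-Nd3 and mt-Nd4l rose as well. mt-Nd4l (chrM:9877-10173) had 717, 726, 667 and 667 CPM in GOF, against 536, 435 and 554 CPM in WT, with no overlap (log2 fold change 0.45, SE 0.10, edgeR adjusted p = 0.0089). mt-Nd3 (chrM:9459-9806) had 501, 399, 532 and 470 CPM in GOF, against 409, 226 and 318 CPM in WT. Its groups touched, since GOF replicate 2 lay below WT replicate 1, and its log2 fold change of 0.58 (SE 0.19) passed with an edgeR adjusted p of 0.04097.

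mt-Nd4, mt-Nd5 and mt-Nd6 of complex I did not pass. mt-Nd4 (chrM:10167-11544), which starts inside mt-Nd4l, had 4236, 3800, 4295 and 4191 CPM in GOF and 3688, 2663 and 3493 CPM in WT, without overlap (log2 fold change 0.33, SE 0.12, edgeR adjusted p = 0.0678). For mt-Nd6 the groups overlapped and the log2 fold change was 0.45 (SE 0.23, edgeR adjusted p = 0.175).

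mt-Nd5 (ENSMUSG00000064367, chrM:11742-13565), the longest of the 13 genes, stood apart. It had 3246, 2667, 3072 and 2568 CPM in GOF and 3290, 2751 and 3379 CPM in WT. The groups overlapped and the log2 fold change was -0.12 (SE 0.12, edgeR adjusted p = 0.471), the only negative value of the 13. Without GOF replicates 2 and 4, the pair with the lower mt-Nd5 levels, it was 0.022.

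Complex III, which passes electrons to cytochrome c, has a single mitochondrially encoded subunit, cytochrome b. mt-Cytb (chrM:14145-15288) had 5768, 5135, 5849 and 5761 CPM in GOF and 5030, 3786 and 4733 CPM in WT. GOF replicate 2 lay close to WT replicate 1 and below the other GOF libraries, and the groups did not overlap. The log2 fold change of 0.32 (SE 0.12) did not pass (edgeR adjusted p = 0.0656).

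The 3 core subunits of complex IV, which hands electrons to oxygen, had positive fold changes. mt-Co3 (chrM:8607-9390) had 6239, 5193, 6386 and 6027 CPM in GOF and 5040, 3807 and 4345 CPM in WT (log2 fold change 0.44, SE 0.12, edgeR adjusted p = 0.0237). mt-Co2 (chrM:7013-7696), which carries the copper site that accepts electrons from cytochrome c, had 5090, 4392, 4922 and 4681 CPM in GOF and 3786, 3489 and 3767 CPM in WT (log2 fold change 0.37, SE 0.089, edgeR adjusted p = 0.0125). Neither gene overlapped between the groups. mt-Co1 (chrM:5328-6872), with the most counts of the 13, also had all its GOF libraries above WT, at 18201 to 20295 CPM in GOF and 15707 to 16748 CPM in WT, but its log2 fold change of 0.26 (SE 0.094) did not pass (edgeR adjusted p = 0.0624).

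Of the ATP synthase genes, mt-Atp8 (chrM:7766-7969) had 2716, 2500, 2778 and 2715 CPM in GOF and 2270, 2052 and 2158 CPM in WT, without overlap (log2 fold change 0.31, SE 0.082, edgeR adjusted p = 0.02001). mt-Atp6 (chrM:7927-8607), which forms the proton channel, had 7562, 6440, 7832 and 7522 CPM in GOF and 6533, 5622 and 6113 CPM in WT. GOF replicate 2 fell just below WT replicate 1, and its log2 fold change of 0.27 (SE 0.104) did not pass (edgeR adjusted p = 0.07896). Within each library mt-Atp8 counts were 0.366 ± 0.0152 of mt-Atp6 counts in GOF (SD, n = 4) and 0.355 ± 0.00899 in WT (SD, n = 3), a difference within the spread of the libraries (exact permutation test, 2-sided, p = 0.343).

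**Figure D2:**
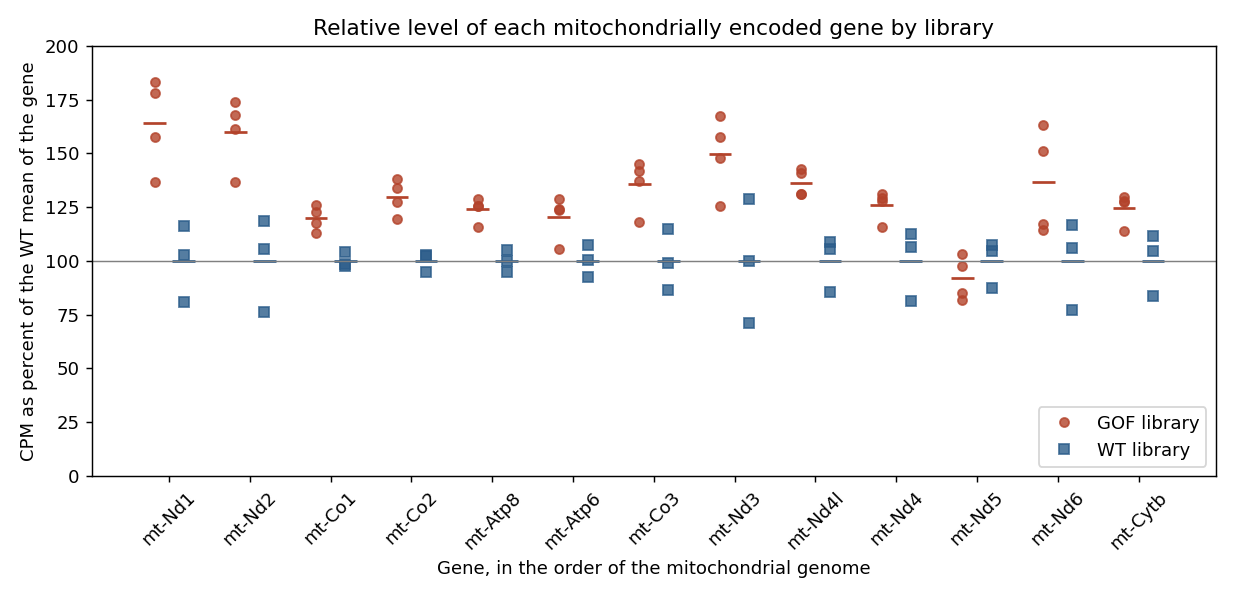
Level of each gene in each library, as CPM in percent of the mean of the 3 WT libraries (y axis), in the order of the mitochondrial genome (x axis), with red circles for GOF libraries, blue squares for WT libraries and bars at group means. GOF libraries of mt-Nd1 lie at 137% to 183% and its WT libraries at 81.1% to 116%, while those of mt-Nd5 lie at 81.8% to 103% in GOF and 87.6% to 108% in WT.

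Over the 13 genes the groups did not overlap for 9, each with GOF above WT, where 21.5% of all tested genes had all GOF libraries above all WT libraries and 18.2% all below. The libraries moved together across genes. WT replicate 2 was the lowest of all 7 libraries for 11 of the 13 genes, GOF replicate 2 was the lowest GOF library for 10, and GOF replicate 1 or 3 the highest GOF library for 11. Without GOF replicates 1 and 3 the edgeR fit called 0 of the 13 genes, with 4 at an unadjusted p under 0.05 and 4 called higher by DESeq2, and 12 of the 13 fold changes were positive. Over all tested genes that edgeR fit called 1074 higher and 1050 lower, and the number for DESeq2 was not determined. In the same edgeR fit the adjusted p of the 7 genes ran from 0.0675 to 0.247 and the median log2 fold change of the 13 was 0.29. Leaving out GOF replicate 1, 3 or 4 or WT replicate 3 alone left 4 of the 7 calls in each case, without WT replicate 2 mt-Co3 and mt-Nd3 lost theirs, and the calls of mt-Nd1, mt-Nd2, mt-Co2 and mt-Nd4l held without any single library.

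Whether the 13 genes kept their proportions was examined within each library, where the total of the mitochondrially encoded counts no longer matters. mt-Nd5 made up 4.98%, 4.73%, 4.71% and 4.17% of these counts in GOF and 6.17%, 6.15% and 6.78% in WT. mt-Nd1 made up 8.16%, 7.25%, 8.40% and 7.65% in GOF and 6.52%, 5.42% and 6.15% in WT, and mt-Nd2 5.41%, 5.11%, 5.61% and 5.52% in GOF and 4.68%, 3.59% and 4.44% in WT. For each of these the groups did not overlap, with mt-Nd5 lower and mt-Nd1 and mt-Nd2 higher in GOF. mt-Atp6 was the fourth gene without overlap, at 11.8% ± 0.363 in GOF (SD, n = 4) and 12.4% ± 0.181 in WT (SD, n = 3). These 4 genes had the smallest p the design allows, 0.0571, or 0.186 adjusted over the 13 genes with the Benjamini-Hochberg method (exact permutation tests, 2-sided). The largest component, mt-Co1, made up 31.1% ± 0.837 in GOF and 32.8% ± 2.30 in WT and overlapped (exact permutation test, p = 0.286). Grouped by complex, no share of the mitochondrially encoded counts was free of overlap. Complex I stood at 26.5% ± 0.658 in GOF and 24.9% ± 2.02 in WT.

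The same question was put to edgeR, over all 12668 genes but with each library's total set to its mitochondrially encoded counts, a fit added after the data were seen. On that scale, where the median of all tested genes was -0.33, mt-Nd5 fell by 0.46 on the log2 scale (SE 0.084, edgeR adjusted p = 0.00321), and mt-Nd1 and mt-Nd2 rose by 0.38 (SE 0.0901, adjusted p = 0.00933) and 0.35 (SE 0.101, adjusted p = 0.0211). None of the 10 others passed. The share of all tested genes called on that scale was not determined, so these calls have no background share beside them. Their adjusted p also depend on all tested genes, whose median was -0.33 on that scale. The calls of mt-Nd5 and mt-Nd1 held without each library in turn (adjusted p 0.00576 to 0.0169 for mt-Nd5 and 0.00821 to 0.0314 for mt-Nd1), while that of mt-Nd2 was lost without GOF replicate 1, 3 or 4 (log2 fold changes 0.35, 0.33 and 0.34, adjusted p = 0.0519, 0.0534 and 0.0539). Without GOF replicates 1 and 3 together, mt-Nd5 fell by 0.52 (adjusted p = 0.0246), and mt-Nd1 and mt-Nd2 had log2 fold changes of 0.30 and 0.33 that did not pass (adjusted p = 0.106 and 0.141).

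**Figure D3:**
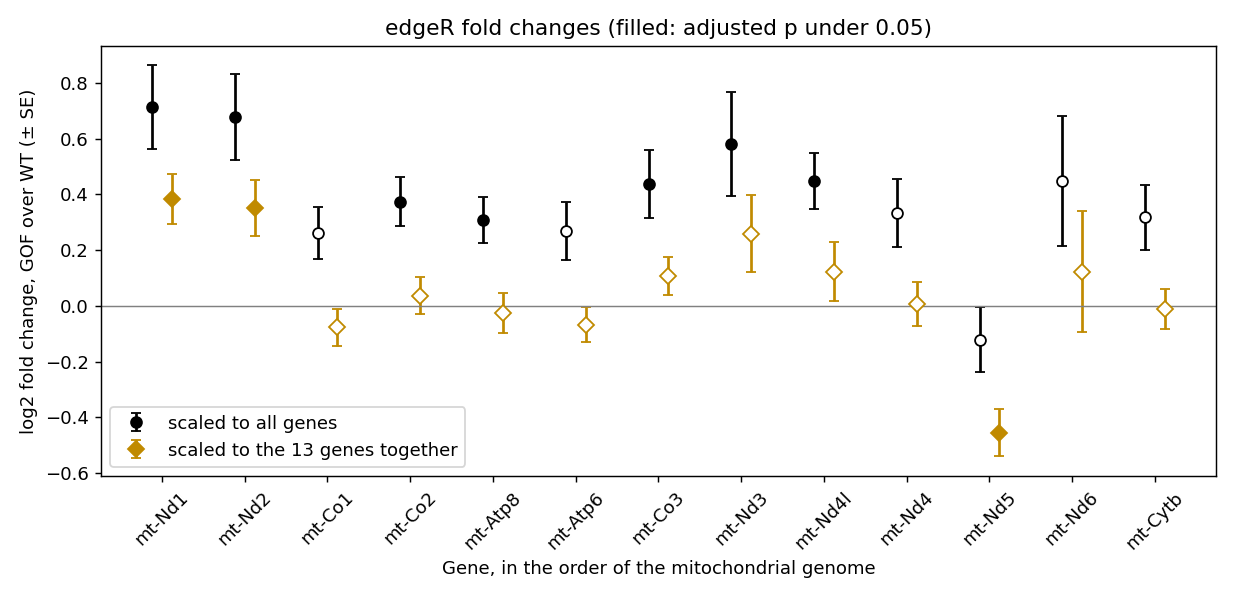
log2 fold changes of GOF over WT (y axis, with SE as bars) from edgeR for each gene in genome order (x axis), with black circles for the fit scaled to all genes and yellow diamonds for the fit scaled to the mitochondrially encoded counts. Filled symbols passed at an adjusted p under 0.05, which are 7 genes on the first scale and mt-Nd1, mt-Nd2 and mt-Nd5 on the second. For the second scale the share of all tested genes called was not determined.

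Expressed as a ratio of counts, chosen after the values were seen, mt-Nd1 stood to mt-Nd5 as 1.64, 1.53, 1.78 and 1.84 in GOF and as 1.06, 0.881 and 0.908 in WT. The ratio of mt-Nd2 to mt-Nd5 was 1.09, 1.08, 1.19 and 1.32 in GOF and 0.758, 0.583 and 0.656 in WT. Both ratios were higher in every GOF library than in every WT library (exact permutation test, 2-sided, p = 0.0571 each, 0.0952 adjusted over 5 ratios). The myeloid marker sums of GOF replicates 1 to 4 were 610, 198, 649 and 224 CPM. How the ratios relate to these sums was not tested. mt-Nd6 counts per 1000 mt-Nd5 counts were 2.40 ± 0.593 in GOF (SD, n = 4) and 1.58 ± 0.167 in WT (SD, n = 3), also without overlap and with the same p. The ratio of mt-Nd4l to mt-Nd4 was 0.169 ± 0.0160 in GOF (SD, n = 4) and 0.156 ± 0.00935 in WT (SD, n = 3) and overlapped.

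**Figure D4:**
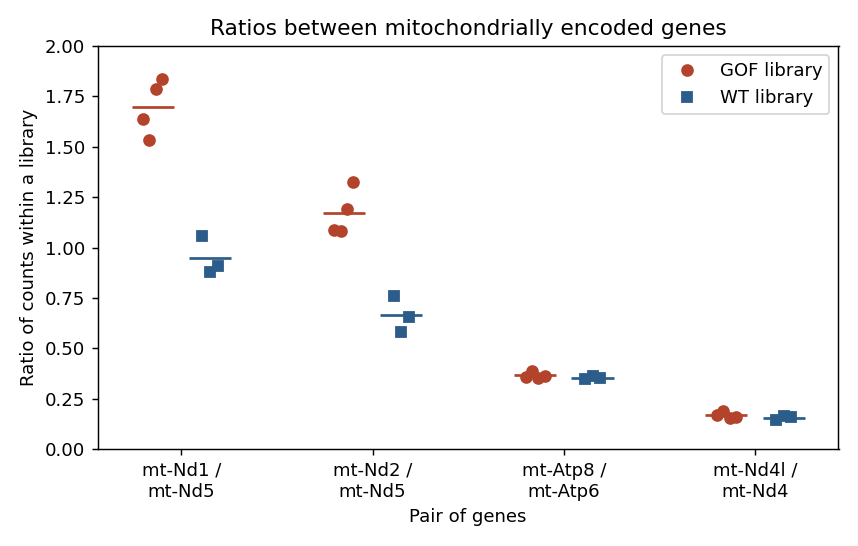
Ratio of the counts of paired genes within each library (y axis), with red circles for GOF libraries, blue squares for WT libraries and bars at group means. mt-Nd1 over mt-Nd5 averages 1.70 in GOF and 0.949 in WT, whereas the ratios of mt-Atp8 over mt-Atp6 and of mt-Nd4l over mt-Nd4 overlap between the groups.

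Stretches of mitochondrial DNA have been copied into the nuclear genome. In GENCODE M21, 17 nuclear genes held a stretch of at least 100 bases with at least 90% identity to one of the 13 genes, and 12 of these were in the deposited table. At 99% identity or more there were 7, matching mt-Co1, mt-Co2, mt-Atp6, mt-Co3, mt-Nd3, mt-Nd4l and mt-Nd4, and reads of these cannot be assigned with certainty. They held 0.431% ± 0.0365 of counts in GOF (SD, n = 4) and 0.376% ± 0.0489 in WT (SD, n = 3), and 0 of the 7 passed in either direction (log2 fold changes -0.08 to 0.30). Set against the mitochondrially encoded counts, they came to 6.18, 6.90, 7.24 and 6.84 per 100 in GOF and to 8.12, 7.42 and 7.97 in WT, without overlap (exact permutation test, 2-sided, p = 0.0571). With their counts added to the gene each matches, 6 of the 13 were called higher, and mt-Nd3 lost its call (edgeR adjusted p = 0.0610). mt-Nd1, mt-Nd2, mt-Atp8, mt-Nd5, mt-Nd6 and mt-Cytb had no copy at that identity. The search covered annotated nuclear genes and stretches of at least 100 bases only, so shorter or unannotated copies were not looked for. Of the 5 copies in the table below 99% identity 3 were tested, 2 were higher and 0 lower. Named after their values were seen, these were Gm13339, which resembles mt-Nd2, with 354, 302, 366 and 411 counts in GOF and 20, 45 and 92 in WT (log2 fold change 2.63, edgeR adjusted p = 0.00142), and Gm13340, which resembles mt-Co1, with 2120, 2054, 2181 and 2144 counts in GOF and 1175, 1150 and 1254 in WT (log2 fold change 0.69, edgeR adjusted p = 0.000283). mt-Nd2 itself had 45150 to 60905 counts in GOF and 23319 to 34725 in WT. mt-Co1 had 285235 to 329348 counts in GOF and 225772 to 233330 in WT. The part of the copies in the results for mt-Nd2 and mt-Co1 was not tested.

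The nuclear genes whose products read out the mitochondrial genome were mostly not called. Of 114 tested genes in lists for mitochondrial transcription, DNA copying, RNA processing and translation, 12 were higher, 15 lower and 87 not called, with a median log2 fold change of 0.03, where 31.3% of all tested genes were called in either direction. Among the transcription machinery, Polrmt, the mitochondrial RNA polymerase, was at 53.5 ± 6.49 CPM in GOF (SD, n = 4) and 53.7 ± 1.94 CPM in WT (SD, n = 3). Tfam, which packages mitochondrial DNA and starts transcription, was at 64.4 ± 5.49 CPM in GOF and 75.3 ± 5.43 CPM in WT and did not pass (log2 fold change -0.23, edgeR adjusted p = 0.124). Tfb2m, the initiation factor that opens the promoter, fell to 20.2 ± 0.360 CPM in GOF, against 28.1 ± 5.93 CPM in WT (log2 fold change -0.47, edgeR adjusted p = 0.0403). Tefm, the elongation factor, fell to 4.36 ± 0.767 CPM in GOF, against 6.90 ± 1.12 CPM in WT (log2 fold change -0.66, edgeR adjusted p = 0.0490). The calls of Tfb2m and Tefm each held in 4 of 17 alternative settings, with edgeR, DESeq2 or limma adjusted p up to 0.163 and 0.222.

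Regulators of nuclear genes for mitochondria went different ways. Esrra, a nuclear receptor that drives such genes, rose to 38.4 ± 4.27 CPM in GOF, against 25.99 ± 0.935 CPM in WT (edgeR adjusted p = 0.00639). Myc fell to 86.3 ± 10.1 CPM in GOF, against 222 ± 42.8 CPM in WT (edgeR adjusted p = 0.000178), and Tfdp1, a partner of E2F factors, rose to 34.4 ± 1.51 CPM in GOF, against 20.1 ± 2.33 CPM in WT (adjusted p = 0.00134). Nrf1 (log2 fold change -0.28), Gabpa (-0.08) and the coactivator Ppargc1b (-0.45) did not pass (edgeR adjusted p = 0.0821, 0.738 and 0.0783). Ppargc1a had at most 0.707 CPM in any library and was not tested.

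Among genes of RNA handling, Rexo2, an oligoribonuclease that clears short RNA pieces in mitochondria, had the smallest p. It had 76.2, 72.3, 78.5 and 78.3 CPM in GOF and 260, 184 and 203 CPM in WT (log2 fold change -1.50, SE 0.12, edgeR adjusted p = 3.24e-05). Pnpt1, the polynucleotide phosphorylase of the RNA-degrading complex, rose to 52.6 ± 6.62 CPM in GOF, against 39.0 ± 3.15 CPM in WT (adjusted p = 0.0268, and 0.158 at the highest over the alternatives). Its helicase partner Supv3l1 had a log2 fold change of 0.33 and did not pass (adjusted p = 0.119). Lrpprc and Slirp, which bind and stabilise mitochondrial messengers together, were not called either, at 0.14 and 0.60 on the log2 scale (edgeR, adjusted p = 0.340 and 0.119). Ptcd3, a protein of the small mitochondrial ribosome, fell by 0.43 on the log2 scale (adjusted p = 0.0136), a call lost in some alternatives.

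Genes of mitochondrial translation were called in both directions, 6 higher and 5 lower of 36, a share close to the 31.3% called among all tested genes. Tars2, the mitochondrial threonyl-tRNA synthetase, fell to 79.97 ± 8.27 CPM in GOF, against 195 ± 31.8 CPM in WT (log2 fold change -1.28, edgeR adjusted p = 0.000122), and Hars2, the histidyl enzyme, fell by 0.37 on the log2 scale (adjusted p = 0.0179, a call that held in 10 of 17 alternatives, with adjusted p up to 0.154). Sars2, the seryl enzyme, rose to 28.4 ± 3.78 CPM in GOF, against 15.8 ± 2.51 CPM in WT (adjusted p = 0.00411). Qrsl1 and Gatb, subunits of an enzyme that acts on the glutamine transfer RNA, rose by 0.84 and 0.94 on the log2 scale (adjusted p = 0.00467 and 0.00555). Gatc, another subunit of it, was not called (log2 fold change -0.11, edgeR adjusted p = 0.684). Gfm1, an elongation factor, rose by 0.57 (adjusted p = 0.00481).

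The nuclear genes listed for the respiratory chain and ATP synthase numbered 79 tested genes, including the 4 of complex II. Of the 79, 12 were higher, 1 lower and 66 not called, with a median log2 fold change of 0.11. Among all tested genes 16.8% were higher, so the share of these genes called higher was near the background, and 14.5% were lower. By complex, the nuclear subunits had medians of 0.15 for complex I (6 of 36 higher), 0.07 for complex III (1 of 9 higher), 0.14 for complex IV (3 of 12 higher and 1 lower) and 0.0087 for complex V (1 of 18 higher). The mitochondrially encoded genes had the higher median, 0.37, but the difference between the sets was not tested. For complex II, which has no mitochondrially encoded subunit, the median was 0.11 (1 of 4 higher). The gene of these lists that fell, Cox7a2l, was counted here with complex IV. It had 335 ± 36.2 CPM in GOF and 489 ± 57.9 CPM in WT (log2 fold change -0.55, edgeR adjusted p = 0.00625). Without GOF replicates 1 and 3, 2 of the 79 were called higher, while the number over all genes fell to 1074, against 2130 with every library.

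**Figure D5:**
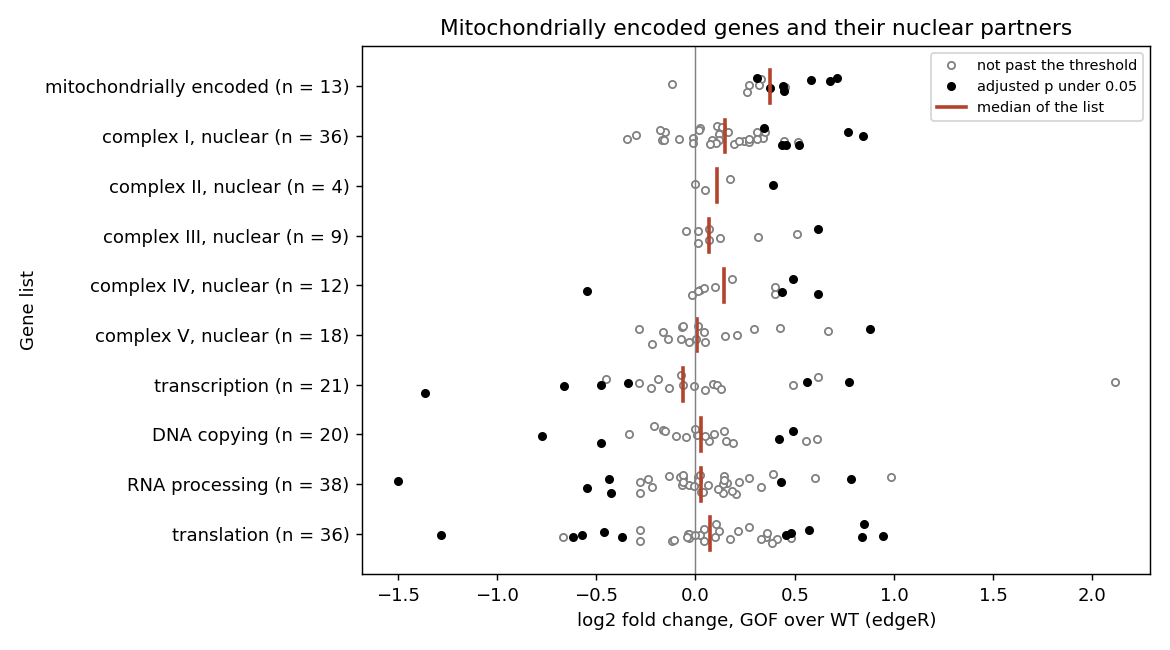
log2 fold change of GOF over WT from edgeR (x axis) for the mitochondrially encoded genes in the top row and for lists of nuclear genes below (y axis), with 1 point per gene, filled where the adjusted p was under 0.05, and a red bar at the median of each list. The mitochondrially encoded genes have a median of 0.37 and the nuclear lists medians between -0.07 and 0.15.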

How the data were processed

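In the table the authors deposited, each gene has an unnormalised count and an FPKM for every library. Cufflinks 2.1.1, Cuffdiff, HISAT2 2.0.4 and the mm10 build are named, per the submitters' processing notes. What each tool did, how reads were counted, how multiply mapping reads were treated and whether strand was used is not given in the sources used here. Each FPKM as deposited equals count per length and column total within 0.1% for 100% of non-zero values. Poly(A) selection is not stated in the labels, which name the TruSeq RNA kit.

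Counts were tested with edgeR 4.0.16 (R 4.3.3, filterByExpr, TMM, quasi-likelihood, all 7 libraries, Benjamini-Hochberg over all 12668 tested genes, threshold 0.05). The fit was tested on simulated data. DESeq2 1.42.0 and limma 3.58.1 were alternatives. A log2 fold change is GOF over WT, and its standard error (SE) comes from the fold change and the F statistic. Values are mean ± SD. Per-library measures had exact 2-sided permutation tests. Genes, lists and tests were chosen with earlier results of these data known. Every mitochondrial gene is described. From the nuclear lists, up to 6 genes in each direction with the smallest p and 12 fixed genes are named. Gatc is named besides, as a partner of Qrsl1 and Gatb. Of 123 listed gene expression factors 115 matched by symbol, and of 80 subunits 79. The plan had ribosomal and transfer RNA classes, for which respiratory complexes were used instead. No replicate pair agreed within sampling noise. One marker gene is not reported here.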

Additional observations from a re-analysis of the deposited data

Results flagged for a closer look

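In the 4 GOF libraries, mt-Cytb was the single gene of the 13 with a library far from the others. GOF replicate 2 had 5135 CPM, and the others 5768, 5849 and 5761 CPM, so that its gap to the nearest library was 0.8777 of the whole range, above Dixon's critical value for 4 samples. Chance gives about 1 such case in 20, and 27 groups of values were examined. Without GOF replicate 2 the log2 fold change of mt-Cytb was 0.36 (edgeR adjusted p = 0.0519), against 0.32 with it.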

How the results depend on the processing

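The 1.58 point difference in the share of counts moved by less than the spread between replicates in every alternative tried (1.35 to 1.77 without each library in turn). The number of mitochondrially encoded genes called higher was 11 with plain library totals and with DESeq2, 4 to 9 without each library in turn, 0 without GOF replicates 1 and 3, and 0 were lower in each of these. Over all tested genes, 2524 were higher and 1429 lower with plain totals, and 2408 and 2039 with DESeq2. The edgeR fit called 2130 and 1838. Between 1615 and 2091 of all tested genes were higher without each library in turn. Without GOF replicates 1 and 3, 1074 of all tested genes were higher and 1050 lower, with fewer samples fitted. mt-Nd5 had a log2 fold change of 0.022 without GOF replicates 2 and 4. Nuclear gene expression factors called lower, 15 in the edgeR fit, numbered 9 with plain totals, 6 with limma at either pseudocount, 4 without GOF replicates 1 and 3, 6 without GOF replicates 2 and 4 and 4 to 12 without each library in turn. Nuclear subunits called higher, 12 in the edgeR fit, numbered 19 with limma at either pseudocount, 2 without GOF replicates 1 and 3 and 3 to 21 without each library in turn, and those lower, 1 in the edgeR fit, 2 with DESeq2 and 1 to 2 without each library. Polrmt, near 0 in every setting, had positive log2 fold changes of 0.070 (plain totals), 0.0072 (totals without the mitochondrially encoded genes), 0.054 and 0.058 (limma with a pseudocount of 1 and 0.5), 0.0036 (no filter) and 0.054 (without GOF replicates 1 and 3), and ran from -0.10 to 0.035 without each library. Gabpa had 0.00062 (plain totals), 0.0034 and 0.0038 (limma) and 0.047 (without GOF replicates 1 and 3), and ran from -0.20 to 0.040 without each library. The cause of these changes was not tested.

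Deviations of same-numbered GOF and WT samples over all tested genes had r = 0.026, 0.147 and -0.041, and those of differently numbered samples r from -0.18 to 0.13. The highest r was that of the samples numbered 2. For the 13 genes, WT replicate 2 was the lowest of all 7 libraries for 11, and GOF replicate 2 the lowest GOF library for 10. The numbers were not taken as pairs. With the replicate number as a block the share differed by 1.61 points, 7 of the 13 genes were higher, 5 nuclear expression factors were lower and 3 nuclear subunits lower. Alternatives on ribosomal and transfer RNA classes were not run. With 4 and 3 libraries no exact permutation p can go below 0.0571.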
